A study of Mus musculus with 9 samples.

Results

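Glycolysis splits glucose into pyruvate in the cytosol, and cells that do not pass this pyruvate to their mitochondria reduce it to lactate and export it. The genes followed here are 9 enzymes of that route and 1 lactate exporter: Hk1, Hk2, Pfkp, Aldoa, Gapdh, Pgk1, Pkm, Ldha, Ldhb and Slc16a3. They were chosen by gene symbol, and the 10 symbols stand on 11 of the 32285 mouse gene rows, since Aldoa has a second row (ENSMUSG00000114515) that reached at most 0.311 CPM (UMIs per 1000000 UMIs of a library's kept cells) in any library and is left aside. Their unique molecular identifier (UMI) counts were read in 9 single-cell RNA-seq libraries made with 5′ chemistry from age-matched animals of 6 to 8 weeks. The design counts as many mice as there are libraries in each group, and each library was taken as 1 mouse, although the labels name no animals. A supplementary legend of the study gives 4 mice for single-cell data of tumor tissue, fewer than the 5 tumor libraries used here. The 5 tumor libraries came from ZFTA–RELA ependymomas of NestinCreERT2;Fus1 mice, in which a conditional fusion allele is switched on by a tamoxifen-inducible Cre under Nestin control. The 4 control libraries came from brains of NestinCreERT2;TdT mice, so that both groups carried NestinCreERT2 and the labels list TdT for controls only. Nestin marks embryonic radial glia, so recombination is bound to that lineage, and the tumors are whole dissociated tissue with host immune, vascular and glial cells. Tissue was dissociated, cleared through Percoll, and sorted without dead and Ter119-positive red cells.

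Hexokinases trap glucose by phosphorylating it. Hk1 is the housekeeping enzyme of brain, and Hk2 is the inducible form. Phosphofructokinase, of which Pfkp encodes the platelet type, makes the committed step. Aldoa, Gapdh, Pgk1 and Pkm carry the sugar through cleavage, oxidation and ATP formation to pyruvate. Lactate dehydrogenase is a tetramer of A chains (Ldha), which favour lactate formation, and B chains (Ldhb), which favour the return of lactate to pyruvate. Slc16a3 encodes MCT4, the exporter of highly glycolytic cells. In brain, astrocytes and activated microglia are the cells best known for making lactate, and neurons for using it. Many of these genes are textbook targets of the hypoxia-inducible factors and of MYC.

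The stretch of 250 bases before the transcription start is shown for the 4 members on which the results turn most. Capitals mark ACGTG and GCGTG on either strand (read as CACGT and CACGC on the other), the core that hypoxia-inducible factors bind, and ACGTG also lies inside the palindrome CACGTG, the E-box bound by MYC. Sequences are from RefSeq on GRCm38.p6, written 5′ to 3′ on the gene's strand, for Ldha (chr7:46845554-46845803, plus strand), Hk2 (chr6:82774455-82774704, minus strand), Slc16a3 (chr11:120948817-120949066, plus strand) and Ldhb (chr6:142507958-142508207, minus strand).
Ldha: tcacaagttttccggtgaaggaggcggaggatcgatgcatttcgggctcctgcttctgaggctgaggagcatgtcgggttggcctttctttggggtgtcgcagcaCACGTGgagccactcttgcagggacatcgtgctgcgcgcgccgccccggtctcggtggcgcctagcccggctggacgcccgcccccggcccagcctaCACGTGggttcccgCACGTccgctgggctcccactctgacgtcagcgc
Hk2: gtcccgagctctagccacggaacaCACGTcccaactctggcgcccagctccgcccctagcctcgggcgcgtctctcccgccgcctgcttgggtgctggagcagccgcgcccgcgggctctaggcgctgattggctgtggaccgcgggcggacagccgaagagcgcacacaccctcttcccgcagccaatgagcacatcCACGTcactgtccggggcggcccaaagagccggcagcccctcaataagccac
Slc16a3: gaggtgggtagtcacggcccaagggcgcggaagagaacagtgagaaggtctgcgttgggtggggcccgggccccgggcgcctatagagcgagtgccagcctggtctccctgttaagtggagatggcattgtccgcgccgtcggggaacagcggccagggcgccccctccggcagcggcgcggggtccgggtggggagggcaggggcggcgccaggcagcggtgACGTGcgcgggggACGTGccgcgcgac
Ldhb: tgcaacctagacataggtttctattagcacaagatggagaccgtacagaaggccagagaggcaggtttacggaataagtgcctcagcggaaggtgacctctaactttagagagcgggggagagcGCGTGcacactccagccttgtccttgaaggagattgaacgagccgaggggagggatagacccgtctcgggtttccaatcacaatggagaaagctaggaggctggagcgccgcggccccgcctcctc

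The Ldha window shown holds 5 matches to ACGTG, of which 4 fall in 2 copies of the palindrome. Another Ldha promoter, at chr7:46846832-46847081, holds no ACGTG and 1 GCGTG. The Hk2 and Slc16a3 windows hold 2 matches each, and the Ldhb window holds no ACGTG and 1 GCGTG. All 10 members have at least 1 promoter in the table, 15 in all. ACGTG occurs in 7 of the 15 and GCGTG in 5, against 16.6% and 28.2% of all 32851 promoters of the same length. The 7 belong to 6 genes, since overlapping Aldoa windows share the same match. A match is a string of letters in a window and not a bound site.

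On GRCm38 (GENCODE M21) Hk1 spans chr10:62268855-62379908, Hk2 chr6:82725025-82774454, Pfkp chr13:6579768-6648777, Aldoa chr7:126795234-126800751, Gapdh chr6:125161715-125166467, Pgk1 chrX:106187100-106203699, Pkm chr9:59656368-59679375, Ldha chr7:46841475-46855627, Ldhb chr6:142490249-142507957 and Slc16a3 chr11:120948480-120960868. Reads were counted per gene, so the M1 and M2 splice forms of Pkm are summed. Gapdh, Aldoa, Pgk1 and Ldha have processed pseudogenes that can take or lend reads, which makes their absolute counts uncertain.

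Filtering kept 20405 barcodes in controls (4023 to 6365 per library) and 15916 in tumors (1721 to 5121), with 13763731 to 21703892 and 5902794 to 37652982 UMIs per library. Fusion transcripts were absent from every control and present in every tumor, with only 6 UMIs in each of tumors 1 and 3 against 235 to 699 in the other 3. Neuronal RNA was spread over nearly all control barcodes: 105 of 20405 had at most 2 of 10 neuron markers, against 11049 of 15916 in tumors. The summed neuron markers made up 25545 to 28288 CPM in controls and 391 to 10649 CPM in tumors, and all 10 were found in each group. Classes were gated by counting fixed markers per barcode. In tumors, 8 to 12 markers of each gated class other than neurons (5 of 10) stood at least 2-fold above the lowest-UMI barcodes. Among controls this held for 12 of 12 myeloid and endothelial and 9 of 10 oligodendrocyte markers. It held for only 1 of 12 astrocyte and 2 of 10 neuron markers. In controls 11 of 12 astrocyte markers stood at least 2-fold above the other kept barcodes. Yet the gate called astrocyte there did not separate astrocytes from the RNA of the lowest-UMI barcodes. Neuron-gated cells were not compared, since only 2 tumors had at least 20 of them. In the 3000 lowest-UMI barcodes of a library, where RNA outside cells weighs most, Hk2 ran from 2.00 to 3.50 CPM in controls and 6.84 to 19.6 CPM in tumors, Ldha from 127 to 140.4 and 139 to 244 CPM, and Slc16a3 from 0.636 to 2.21 and 1.71 to 8.30 CPM. In the lowest barcodes of tumor 3, all of which were also among those considered as cells, Hk2 was the highest at 19.6 CPM, and without that tumor the highest was 11.9 CPM. Over the 28 pairs of libraries compared, which leave out control 4, shared barcodes made up at most 0.291% of the smaller library.

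Over all kept cells, the ependymomas held more Hk2, Ldha, Slc16a3, Gapdh and Pkm RNA than control brains and less Pfkp and Aldoa RNA. Levels are CPM of the cells named, summed per mouse. Log2 fold changes are from edgeR's quasi-likelihood test after TMM scaling and are tumor over control, with their standard errors (SE). Of the 10 members, all of them tested, 5 passed in the higher and 2 in the lower direction at an adjusted p under 0.05, where 32.3% and 29.4% of 17599 genes did so (61.6% in either direction). The members' median log2 fold change was 0.69 against 0.04 for all genes. A sum over a mixed tissue cannot tell fewer cells of a type from less RNA per cell.

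**Figure D1:**
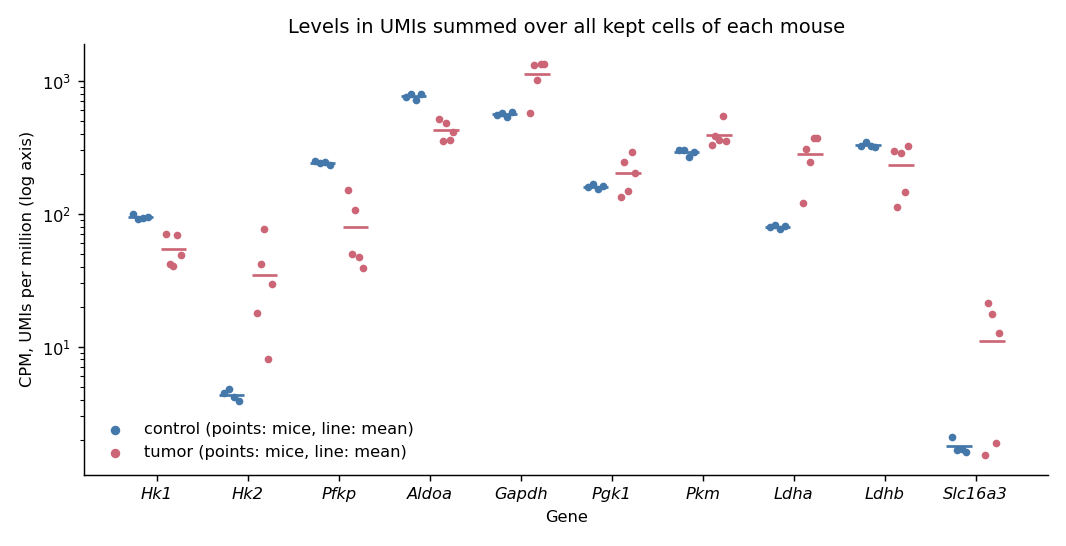
UMI counts (CPM) over all kept cells of each library (log axis) for the 10 genes. Each point is a mouse, 4 controls and 5 tumors, and the line is the group mean. For Hk2, Ldha and Pkm all tumors sit above all controls, and for Hk1, Pfkp and Aldoa all tumors sit below them. The share of all genes without overlap is not given.

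The inducible hexokinase Hk2 stood at 4.50, 4.83, 4.16 and 3.92 CPM in controls 1 to 4 and at 17.8, 41.9, 76.4, 8.05 and 29.4 CPM in tumors 1 to 5. Every tumor lay above every control, and tumor 4 was the lowest. Hk2 rose by a log2 fold change of 3.19 (SE 0.554, edgeR adjusted p = 0.00115). Summed myeloid markers were higher beside it, at 650.1 to 780.2 CPM in controls and 3335 to 12934 CPM in tumors, with all 12 found in each group, and their part in the result was not tested. Hk1, the constitutive form, stood at 100.1, 91.5, 92.8 and 93.8 CPM in controls and 70.5, 41.9, 40.1, 69.0 and 48.4 CPM in tumors. The Hk1 groups did not overlap, yet the log2 fold change of −0.55 (SE 0.222) missed the threshold (edgeR adjusted p = 0.0527). It passed without tumor 4 (−0.69, edgeR adjusted p = 0.01).

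Pfkp, the phosphofructokinase form abundant in brain, stood at 249.6, 241, 244 and 234 CPM in controls and 150.3, 49.9, 107, 47.1 and 38.9 CPM in tumors. It fell by a log2 fold change of −1.46 (SE 0.31, edgeR adjusted p = 0.00306). The aldolase Aldoa stood at 757, 789, 718 and 798 CPM in controls and 511, 351, 482, 357 and 414 CPM in tumors. All tumors lay below all controls for both genes. For Aldoa the log2 fold change was −0.63 (SE 0.157, edgeR adjusted p = 0.00696).

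Gapdh, which oxidizes the cleaved sugar, rose with a log2 fold change of 1.30 (SE 0.345, edgeR adjusted p = 0.00902). Its levels were 550.1, 569, 531 and 582 CPM in controls and 575, 1314, 1009, 1338 and 1345 CPM in tumors. Tumor 1 lay within the control range and the other 4 above it. Pgk1, which makes the pathway's earlier ATP, averaged 159 ± 5.61 CPM (SD, n = 4) in controls and 203 ± 65.6 CPM (SD, n = 5) in tumors. The groups overlapped, and its log2 fold change of 0.67 (SE 0.323) did not pass (edgeR adjusted p = 0.0971), though it did without tumor 1 (0.84, adjusted p = 0.023) or tumor 3 (0.81, adjusted p = 0.045). Pkm, which makes pyruvate, stood at 301, 301, 268 and 289.9 CPM in controls and 328, 385, 358, 541 and 352 CPM in tumors. Every tumor was above every control for Pkm, with a log2 fold change of 0.72 (SE 0.254, edgeR adjusted p = 0.0308), but the call was lost with library totals in place of TMM (0.44, edgeR adjusted p = 0.063), without any 1 control (0.69 to 0.74, adjusted p from 0.067 to 0.084) and without tumor 2 (0.71, adjusted p = 0.055).

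Ldha, at the lactate end of the pathway, was higher in every tumor. Its levels were 79.1, 82.3, 77.2 and 80.4 CPM in controls and 121, 308, 243, 369 and 370.3 CPM in tumors. All tumors were above all controls, tumor 1 least, and the log2 fold change was 2.13 (SE 0.385, edgeR adjusted p = 0.00138). Ldhb levels were 321, 346, 323 and 315 CPM against 297, 112, 287, 145 and 322 CPM. Tumors 2 and 4 stood far below the others for Ldhb, and its log2 fold change of −0.29 (SE 0.262) did not pass (edgeR adjusted p = 0.358). The exporter Slc16a3 was scarce in controls, at 2.11, 1.67, 1.70 and 1.61 CPM, and stood at 1.52, 21.2, 17.5, 1.89 and 12.6 CPM in tumors. Tumors 2, 3 and 5 lay above all controls, tumors 1 and 4 among or below them. Its log2 fold change was 2.90 (SE 0.788, edgeR adjusted p = 0.0102), and limma voom did not call it (2.05, adjusted p = 0.087).

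Tumors 1 and 3, which had few fusion UMIs, can be left out, an alternative chosen after seeing the data. The 7 members called over all cells then passed in the same direction, with log2 fold changes of 2.98 for Hk2, 2.52 for Ldha, 3.12 for Slc16a3, 1.65 for Gapdh, 0.96 for Pkm, −2.02 for Pfkp and −0.65 for Aldoa. Pgk1 passed too (1.02, edgeR adjusted p = 0.000725). In myeloid-gated cells the 7 calls also held, and Pkm was added (0.62, edgeR adjusted p = 0.00581). In astrocyte-gated cells Pfkp was added as lower (−0.80, edgeR adjusted p = 0.0146), and in endothelial-gated cells Aldoa (−0.84, adjusted p = 0.0119).

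Since the proteins of an isozyme pair do the same chemistry, the share of a pair's UMIs that falls on 1 gene was compared as well. It needs no scaling between libraries, though 5′ counting can favour a gene. Shares were tested by a two-sided exact permutation test over mice, whose smallest p for 5 against 4 is 0.0159, adjusted over 20 tests, of which 9 passed. Over all cells, Ldha made up 19.8, 19.2, 19.3 and 20.3% of lactate dehydrogenase UMIs in controls and 28.9, 73.2, 45.8, 71.8 and 53.5% in tumors. Hk2 made up 4.41 ± 0.431% of Hk1 and Hk2 UMIs in controls (SD, n = 4) and 36.8 ± 22.2% in tumors (SD, n = 5). The Pfkp share of the 3 phosphofructokinases fell from 65.8 ± 1.69% to 38.9 ± 9.50%, and the Aldoa share of Aldoa and Aldoc from 73.4 ± 1.74% to 36.6 ± 7.69% (SD, n = 4 and 5). None of these 4 shares overlapped between groups, and each gave p = 0.0159 in the exact permutation test, adjusted 0.0353. How often shares of other gene pairs lie apart is not given, here or in the gated classes below. Over all cells 61.6% of 17599 genes were called, so nothing particular to these isozymes is read from the counts of shares. In the lowest-UMI barcodes the shares of Ldha (18.9 to 20.9% in controls and 30.1 to 61.3% in tumors), Hk2 (1.38 to 2.38% and 6.35 to 26.0%) and Aldoa (73.1 to 77.4% and 27.5 to 38.4%) also lay apart, and only that of Pfkp overlapped (49.0 to 54.8% and 33.6 to 58.0%). Aldoc is the aldolase of astrocytes and Pfkm the muscle-type phosphofructokinase, and neuronal RNA moved with these shares. The part of neuronal RNA and of RNA outside cells in the shifts was not tested.

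**Figure D2:**
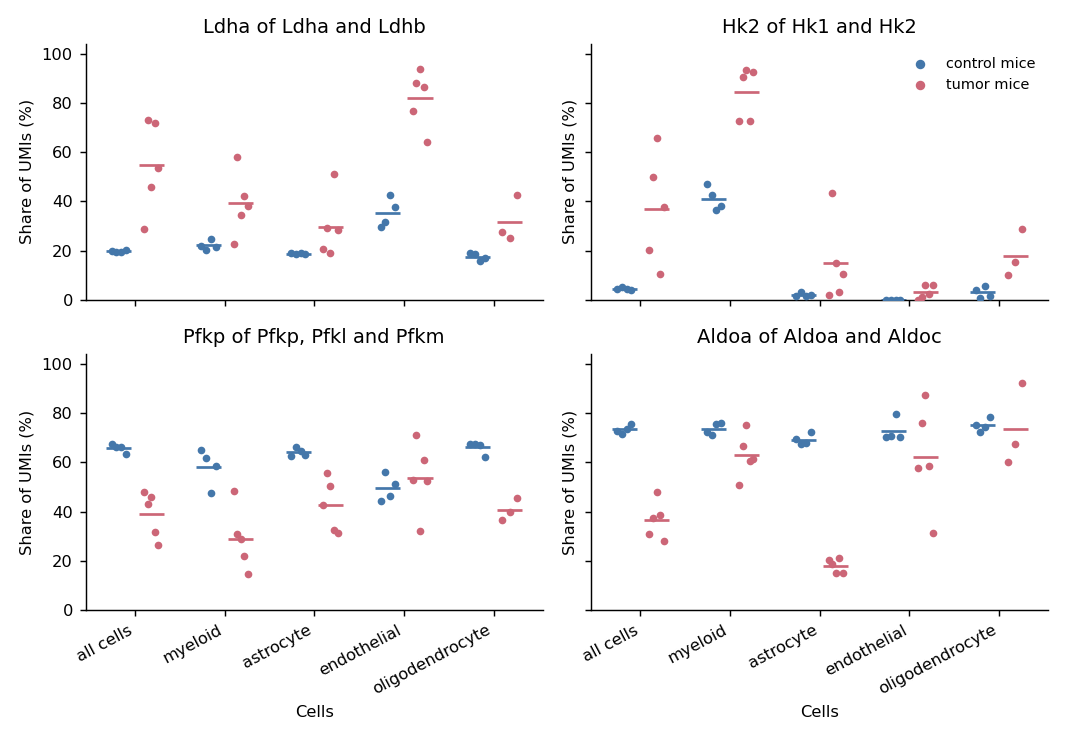
Percent of UMIs on 1 isozyme (Ldha of Ldha and Ldhb, Hk2 of Hk1 and Hk2, Pfkp of the 3 phosphofructokinases, Aldoa of Aldoa and Aldoc) in each mouse over all cells and in gated classes. Points are mice and lines are group means. The Ldha share over all cells runs from 19.2 to 20.3% in controls and from 28.9 to 73.2% in tumors.

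Among 18 other glycolysis enzymes, 15 were tested over all cells, with 4 higher and 4 lower. Aldoc rose (log2 fold change 1.71, SE 0.281, edgeR adjusted p = 0.000888), as did the myeloid hexokinase Hk3 (2.85, SE 0.69, adjusted p = 0.00596). Pgam2, the muscle phosphoglycerate mutase, fell (−2.14, edgeR adjusted p = 0.00407). All 11 other glucose and lactate transport genes were tested, with 4 higher and 3 lower. Slc2a1, the glucose transporter GLUT1 of the blood–brain barrier, rose by 3.69 on the log2 scale (SE 0.568, edgeR adjusted p = 0.000657). Slc16a1, the lactate carrier MCT1, rose by 2.47 (SE 0.292, adjusted p = 0.000233). The neuronal carriers Slc2a3 (GLUT3, −1.98) and Slc16a7 (MCT2, −2.04) fell. Of 13 regulators of pyruvate entry and phosphofructokinase, 12 were tested, with 3 higher and 3 lower. They included Pdk4, a kinase that inhibits pyruvate dehydrogenase in mitochondria (3.38, edgeR adjusted p = 0.000152), and Pfkfb3, which makes the activator of phosphofructokinase (1.98, adjusted p = 0.00119). Tigar, which removes that activator, fell (−1.07, edgeR adjusted p = 0.00106).

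Myeloid-gated cells, microglia and macrophages together, numbered 930 in controls and 2153 in tumors. The gate's leading genes differed between the groups, with Cx3cr1, Siglech and P2ry12 among the first 10 in controls and Lyz2 and Ccl4 in tumors. P2ry12, a receptor of resting microglia, ran from 636 to 705 CPM in controls and from 143 to 996 CPM in tumors, while Lyz2, the lysozyme of macrophages and monocytes, ran from 146 to 456 and from 1094 to 8239 CPM. A change in the mix of microglia and macrophages and a change within either cannot be told apart in these sums. This and the following comparisons by class use the same mice as the sum over all cells, and are not independent of it or of each other. In them Hk2, Slc16a3, Ldha and Gapdh passed as higher in tumors, and Hk1, Pfkp and Aldoa as lower. The share of 10726 genes called was 28.7% in the higher and 25.5% in the lower direction (54.2% in all), and the members' median log2 fold change was 0.42 against 0.09. Scaling matters here. With library totals in place of TMM the median over all genes moved from 0.09 to −0.45, and the calls from 3073 higher and 2737 lower to 1552 higher and 4394 lower. Summed neuron markers in these cells were 11962 to 16034 CPM in controls and 198 to 2570 CPM in tumors, and summed myeloid markers 10393 to 11617 CPM and 36327 to 43111 CPM. The part of either in the results was not tested.

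Hk2 stood at 86.6, 58.2, 56.6 and 59.2 CPM in control myeloid-gated cells and at 127, 176, 237, 75.1 and 234 CPM in tumor ones. Tumor 4 lay inside the control range and the other 4 above it. The log2 fold change was 1.92 (SE 0.33, edgeR adjusted p = 0.000551). Hk1 moved the other way, at 96.9, 78.2, 97.8 and 96.9 CPM against 47.5, 17.9, 17.2, 28.2 and 19 CPM, with every tumor below every control (−1.37, SE 0.267, edgeR adjusted p = 0.00123). The Hk2 share of the pair was 47.2, 42.7, 36.7 and 37.9% in controls and 72.7, 90.7, 93.3, 72.7 and 92.5% in tumors, without overlap (exact permutation p = 0.0159, adjusted 0.0353).

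Slc16a3 in the same cells stood at 8.25, 1.82, 9.01 and 6.46 CPM in controls and 10.6, 48.1, 40.8, 13.1 and 62.7 CPM in tumors. The groups did not overlap (3.11, SE 0.648, edgeR adjusted p = 0.00182), but counts were low. Control 3, the highest control, held 7 UMIs and tumor 1, the lowest tumor, 8, while control 2 held 2. Ldha stood at 111, 97.3, 118 and 82.9 CPM in controls and 85.8, 281, 173, 235 and 371 CPM in tumors. Tumor 1 lay among the controls and the rest above them (1.74, SE 0.392, edgeR adjusted p = 0.00297). Gapdh rose by 1.03 on the log2 scale (SE 0.293, edgeR adjusted p = 0.011), a call lost with library totals (0.47, adjusted p = 0.13). Tumor 1, at 432 CPM, lay below all controls (574 to 684 CPM) for Gapdh and the other 4 above them. Pfkp fell by a log2 fold change of −1.84 (SE 0.362, edgeR adjusted p = 0.00129), from 116 to 188 CPM in controls to 13.4 to 73.9 CPM in tumors. Aldoa passed narrowly (−0.53, SE 0.194, edgeR adjusted p = 0.0347) and was lost under 10 of the alternatives, among them each omission of 1 control and of tumor 2, 3 or 4 (−0.49 to −0.57, adjusted p from 0.051 to 0.078). Ldhb, Pkm and Pgk1 did not pass (0.47, 0.36 and 0.14).

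Per 1000 UMIs of the 12 myeloid markers, a scale chosen after seeing the data, Hk2 reached 7.45, 5.60, 5.30 and 5.38 in controls and 3.37, 4.65, 5.79, 2.07 and 5.43 in tumors. No tumor exceeded all controls, and the two-sided exact permutation test gave p = 0.143 (adjusted 0.214 over 3 genes). Ldha averaged 9.39 ± 1.46 in controls (SD, n = 4) and 5.80 ± 2.55 in tumors (SD, n = 5, exact permutation p = 0.0317, adjusted 0.0952). Slc16a3 averaged 0.579 ± 0.289 and 0.873 ± 0.531, with 3 of 5 tumors above all controls (exact permutation p = 0.349). None of the 3 passed after adjustment over the 3 genes. These values differ from the edgeR calls above in both scale and test. The 12 markers did not move alike. Median C1qa was 1687 CPM in control and 8791 CPM in tumor myeloid-gated cells, and median Ctss 1390 and 5260 CPM. Median Cx3cr1 was 1433 and 1155 CPM, and median P2ry12 657 and 464 CPM. The part of the markers' own changes in these ratios was not tested, so they are not read as levels per myeloid cell.

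Among the pathway's other genes in myeloid-gated cells, 3 of 9 tested enzymes were higher and 1 lower. Hk3, a hexokinase of myeloid cells, rose by 2.29 on the log2 scale (SE 0.498, edgeR adjusted p = 0.00235), and Eno1, the general enolase, by 1.27 (adjusted p = 0.00446), while the neuronal enolase Eno2 fell (−2.32, adjusted p = 0.00869). Of 9 transport genes, 5 were higher and 3 lower, led by Bsg (basigin), the chaperone that carries MCT1 and MCT4 to the membrane (1.39, SE 0.171, edgeR adjusted p = 7.77e-05). Of 10 regulators, 2 were higher, among them Pfkfb3 (1.68), and 1 lower.

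In astrocyte-gated cells, 3565 in controls and 1695 in tumors, 8 members could be tested and Hk2 and Slc16a3 were too scarce. Ldha, Gapdh and Ldhb passed as higher and Hk1 as lower, where 26.3% and 22% of 12275 genes were called (48.3% in all). In controls this gate did not separate astrocytes from the RNA of the lowest-UMI barcodes, so these calls are not read as differences between astrocytes. The members' median log2 fold change was 0.41 against 0.03. Ldha stood at 77.8, 82.8, 82.4 and 78.0 CPM in controls and 114, 175, 167, 449 and 240.1 CPM in tumors, all above all controls (1.69, SE 0.381, edgeR adjusted p = 0.00428). Gapdh rose by 0.95 on the log2 scale (SE 0.24, edgeR adjusted p = 0.00784). Here Ldhb also rose, from 331, 363, 354 and 340.0 CPM to 441, 425, 706, 427 and 609 CPM, again without overlap (0.72, SE 0.21, edgeR adjusted p = 0.0154). The Ldhb call was lost without control 1 (0.68, edgeR adjusted p = 0.054) and without control 4 (0.69, 0.054). Hk1 fell by a log2 fold change of −0.54 (SE 0.178, edgeR adjusted p = 0.026), a call lost without control 1 (−0.50, 0.072), control 3 (−0.55, 0.062) or tumor 5 (−0.52, 0.053).

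Aldoa made up 69.7, 67.3, 67.8 and 72.3% of aldolase UMIs in controls and 20.4, 18.6, 15.2, 20.9 and 14.9% in tumors. The groups did not overlap (exact permutation p = 0.0159, adjusted 0.0353), and neither did those of the lowest-UMI barcodes, where the Aldoa share was 73.1 to 77.4% in controls and 27.5 to 38.4% in tumors. Since this gate did not separate astrocytes from the RNA of the lowest-UMI barcodes in controls, the difference is not read as one between astrocytes. Aldoc, itself an astrocyte marker, rose by 3.11 on the log2 scale (SE 0.257, edgeR adjusted p = 2.53e-05). Aldoa itself did not pass (−0.27, edgeR adjusted p = 0.241). Summed neuron markers in this gate ran from 22092 to 25439 CPM in controls and from 387 to 10482 CPM in tumors, and 2206 of the 3565 control barcodes lay near the gate's limit. Their part in the result was not tested. Slc2a1 (2.59), Slc16a1 (2.21), Pdk4 (3.63) and Pfkfb3 (2.57) were among the other pathway genes that rose here. Of 9 other enzymes tested 4 were higher and 1 lower, of 8 transport genes 3 and 2, and of 12 regulators 4 and 2.

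**Figure D3:**
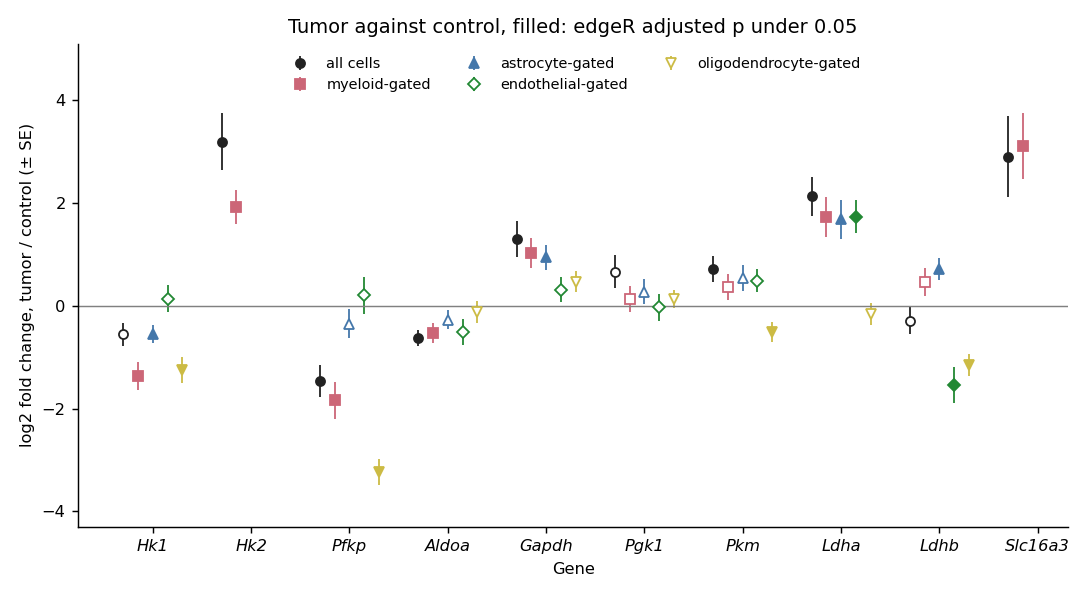
Log2 fold change, tumor over control, with its standard error from edgeR for each member in all cells and in 4 gated classes. Filled symbols passed at an adjusted p under 0.05. Ldha is filled on the higher side in all cells (2.13), myeloid (1.74), astrocyte (1.69) and endothelial (1.73) cells, and not in oligodendrocyte cells (−0.16).

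Endothelial-gated cells, which line the vessels, numbered 27, 37, 33 and 29 in controls 1 to 4 and 723 in tumors. Of 8 members tested, Ldha passed as higher and Ldhb as lower, and 14.2% and 13.6% of 7066 genes were called in those directions (27.8% in all). The members' median log2 fold change was 0.17 against 0.06 for all genes, and with library totals the calls over all genes went from 1004 higher and 958 lower to 765 and 1203. Ldha stood at 116, 138, 132 and 144 CPM in controls and 279, 408, 724, 318 and 284 CPM in tumors (1.73, SE 0.322, edgeR adjusted p = 0.00262). Ldhb went from 275, 298, 177 and 237 CPM to 84.0, 54.2, 46.3, 49.9 and 159 CPM (−1.54, SE 0.349, edgeR adjusted p = 0.00713). Neither gene's groups overlapped. The Ldha share of the pair was 29.6, 31.6, 42.6 and 37.7% in controls and 76.9, 88.3, 94.0, 86.4 and 64.1% in tumors (exact permutation p = 0.0159, adjusted 0.0353).

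Slc16a3 and Hk2 had no UMI in the control endothelial-gated cells, which allows 16.6 to 43.4 CPM per mouse (3 UMIs), so no fold is given. In tumors Slc16a3 stood at 2.27, 86.5, 5.65, 0.924 and 10.6 CPM, with tumor 2 far above the rest and the other 4 below that limit, and Hk2 at 0 to 6.37 CPM. Gapdh, Pkm, Aldoa, Hk1, Pfkp and Pgk1 did not pass, with log2 fold changes from −0.51 to 0.49, though Aldoa did without tumor 3 (−0.77, edgeR adjusted p = 0.016). MCT1 (Slc16a1, 2.00, SE 0.259, edgeR adjusted p = 0.000649), GLUT1 (Slc2a1, 1.98, SE 0.377, adjusted p = 0.00307) and the monocarboxylate carrier family member Slc16a6 (3.39, adjusted p = 0.0159) rose, 3 of 4 transport genes tested with none lower. Of 8 other enzymes only Eno2 passed, as lower (−2.69, adjusted p = 0.00713), and of 5 regulators 0 passed by edgeR, DESeq2 or limma voom, with 0 at an unadjusted p under 0.05 in edgeR. Summed neuron markers were 2836 to 6396 CPM in control and at most 1333 CPM in tumor endothelial-gated cells, the lowest of the gated classes compared in controls.

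Oligodendrocytes are the myelin-forming glia, and 979 control barcodes in their gate were compared with 247 from tumors 1 to 3. Of the 979, 635 lay near the gate's limit. Pooled over mice, summed oligodendrocyte markers were 2139 CPM in the control gate and 13718 CPM in the tumor gate. They were 921 CPM in the lowest-UMI barcodes of controls, and the part of surrounding RNA in the results was not tested. Pfkp, Ldhb, Hk1 and Pkm passed as lower and none of the 8 tested members as higher, where 30.0% of 8127 genes were called higher and 34.1% lower (64.2% in all). The members' median log2 fold change was −0.33 against −0.09, and library totals moved the calls over all genes from 2442 higher and 2775 lower to 1675 and 3600. Pfkp stood at 188, 215, 202 and 196 CPM in controls and 18.9, 12.7 and 20.6 CPM in tumors (−3.23, SE 0.249, edgeR adjusted p = 8.73e-09). Ldhb went from 321 to 385 CPM in controls to 118, 166 and 94.7 CPM (−1.15, SE 0.211, edgeR adjusted p = 0.000145). Hk1 went from 76.4 to 94.4 CPM to 42.5, 23.4 and 20.6 CPM (−1.24, SE 0.259, edgeR adjusted p = 0.000444). All 3 tumors lay below all controls for these genes. Pkm fell narrowly (−0.50, SE 0.192, edgeR adjusted p = 0.0288) and was lost without tumor 2 (−0.32, 0.19) or without any 1 of controls 1, 2 and 4 (−0.42 to −0.51, adjusted p from 0.054 to 0.098). Gapdh, not called (0.47), passed as higher without tumor 1 (0.64, edgeR adjusted p = 0.016) or tumor 2 (0.60, 0.032), and Aldoa as lower without tumor 3 (−0.42, 0.017).

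Ldha in the oligodendrocyte gate stood at 76.3, 87.9, 70.4 and 72.9 CPM in controls and 44.8, 55.2 and 70.0 CPM in tumors. Every tumor lay below every control, tumor 3 by little, and the log2 fold change after TMM, −0.16, did not pass. Neuron markers were lower beside these genes, at 20161 to 23465 CPM in controls and 399 to 1079 CPM in tumors, and their part was not tested. Of 8 other enzymes 4 were lower and none higher, with Eno2 (−2.60) and Pfkm (−2.35) in front. Slc2a1 (2.62) and Slc16a1 (1.66), the carrier by which oligodendrocytes supply axons with lactate, rose, while Slc2a3 fell (−4.03), making 3 higher and 2 lower of 6 transport genes. Pdk4 rose most of the 9 regulators (6.15, edgeR adjusted p = 4.38e-07), of which 4 were higher and 3 lower.

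Progenitor-gated cells carry markers of neural progenitors. The 194 barcodes in that gate in controls carried 28035 to 31052 CPM of neuron markers, so their values are given side by side without a test. Gapdh stood at 507, 557, 409.9 and 550.1 CPM in controls and 971, 1601, 1452, 1488 and 1503 CPM in tumors. Ldha stood at 91.3, 122, 26.9 and 102 CPM against 209.7, 320.1, 184, 391 and 396 CPM, and Pfkp at 357, 275, 249 and 254 CPM against 44.1, 28.8, 52.8, 41.6 and 25.5 CPM. None of the 3 overlapped, and neither did Pgk1 and Pkm, higher in tumors, or Aldoa and Ldhb, lower there. The share of all genes without overlap is not given, so nothing about the members is read from this. Hk2 and Slc16a3 were scarce in tumor progenitor-gated cells, at 0 to 8.05 and 0 to 6.48 CPM.

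Within the tumors, each class was then set against the 6651 progenitor-gated cells of the same mice, with the mouse as a block. Across 6 classes, 26 of the 60 gene and class pairs passed. Of 12609 genes, 20.4% were called higher and 25.5% lower in myeloid, 21.3 and 22.9% in endothelial, 12.5 and 13.7% in mural, 16.8 and 14.3% in astrocyte, 14.6 and 19.5% in oligodendrocyte and 9.53 and 13.5% in oligodendrocyte precursor (OPC) cells, or 45.9, 44.1, 26.2, 31.1, 34.0 and 23.0% in either direction. Members passing as higher and lower numbered 3 and 2 in myeloid, 3 and 3 in endothelial, 4 and 2 in mural, 3 and 0 in astrocyte, 1 and 4 in oligodendrocyte and 0 and 1 in OPC cells. Calls are not independent, since all share the progenitor sums.

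**Figure D4:**
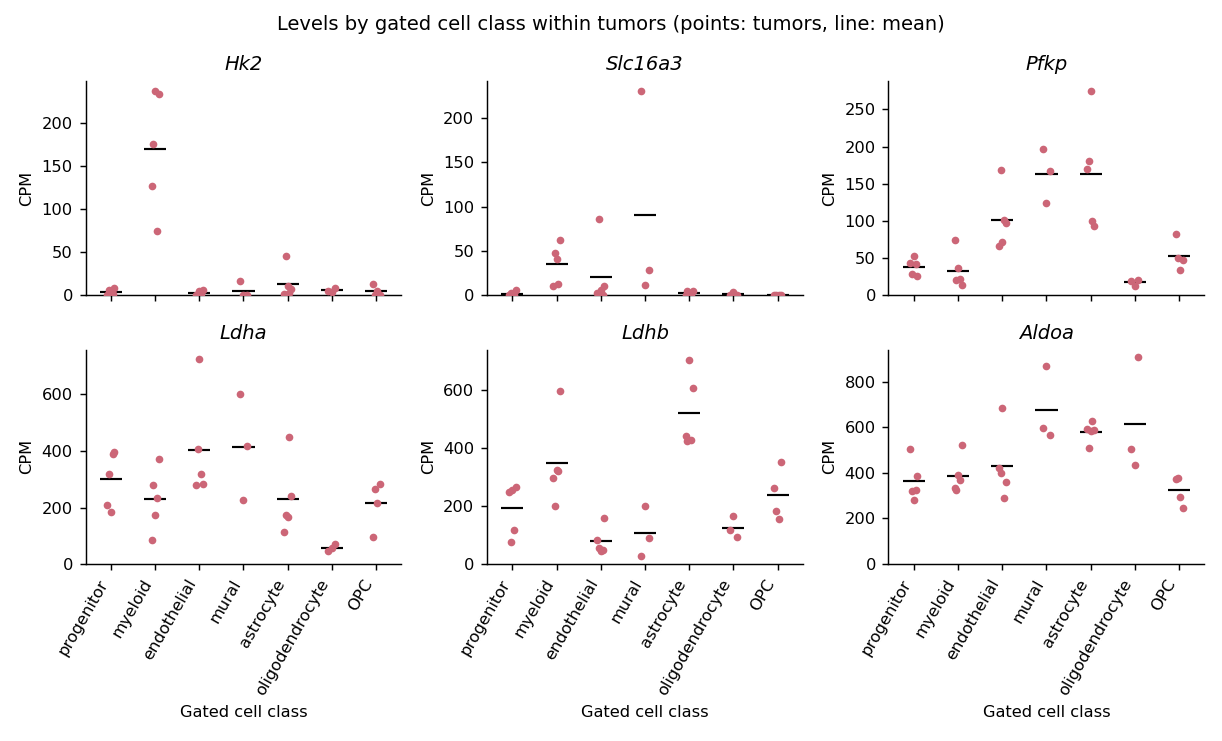
CPM in each gated class of the tumors for Hk2, Slc16a3, Pfkp, Ldha, Ldhb and Aldoa. Points are tumors and lines are class means. Hk2 in myeloid cells lies above every other class without overlap, and Slc16a3 is spread over mural, myeloid and endothelial cells with tumor 2 at the top of mural and endothelial cells.

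The mean Hk2 level over tumors was 169.8 ± 69.9 CPM in myeloid-gated cells (SD, n = 5), followed by astrocyte-gated cells at 13.7 ± 18.5 CPM (SD, n = 5), and the ranges did not overlap. The astrocyte mean was carried by tumor 2 and was 5.57 ± 4.30 CPM without it (SD, n = 4), at the level of the other classes. These lay between 2.78 and 5.73 CPM with overlapping ranges. Against progenitors, Hk2 was higher in myeloid cells in 5 of 5 tumors, by 5.49 on the log2 scale (SE 0.378, edgeR adjusted p = 8.5e-13). Hk1 was lowest in myeloid cells, at 26.0 ± 12.8 CPM (SD, n = 5), close to oligodendrocytes at 28.8 ± 11.9 CPM (SD, n = 3). Its mean was 97.1 ± 40.0 CPM in mural (SD, n = 3), 85.5 ± 13.4 in endothelial (SD, n = 5) and 67.9 ± 8.67 CPM in astrocyte cells (SD, n = 5). In the full order of classes each overlapped the next. Hk1 was lower than in progenitors in myeloid cells (−0.70, SE 0.198, edgeR adjusted p = 0.00454) and higher in endothelial (0.99, adjusted p = 0.000141) and mural cells (1.05, adjusted p = 0.00375). Its myeloid call was lost without tumor 2 (−0.58, edgeR adjusted p = 0.052).

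Slc16a3 was found in mural cells, the pericytes and smooth muscle of vessels, at 230.1, 11.9 and 28.8 CPM in tumors 2, 3 and 4. It averaged 35.1 ± 22.7 CPM in myeloid (SD, n = 5) and 21.2 ± 36.7 CPM in endothelial cells (SD, n = 5), and no UMI was seen in 325 OPCs, which limits the share of OPCs with a UMI at this depth to 0.923%, not the share that express the gene. Neighbouring classes in this order overlapped. Slc16a3 exceeded its progenitor level in mural (5.00, SE 0.693, edgeR adjusted p = 3.89e-06), myeloid (4.49, SE 0.52, adjusted p = 8.92e-08) and endothelial cells (2.98, SE 0.586, adjusted p = 0.000173). Tumor 2 carried much of the vascular values. Without it the endothelial call was lost (1.41, edgeR adjusted p = 0.096) and the mural one held (4.12, adjusted p = 0.002). The mural call then rested on few UMIs, 2 in 38 cells of tumor 3 and 6 in 40 cells of tumor 4. The tumor 3 value lay below the level of 3 UMIs (17.8 CPM).

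For Ldha, mural cells averaged 415 ± 189 CPM (SD, n = 3), endothelial cells 403 ± 187 CPM (SD, n = 5) and progenitors 300.1 ± 99.2 CPM (SD, n = 5), all overlapping. Oligodendrocytes were lowest at 56.7 ± 12.7 CPM (SD, n = 3), below OPCs without overlap, and the only class that passed against progenitors (−2.0, SE 0.453, edgeR adjusted p = 0.000973). Ldhb was highest in astrocytes, at 522 ± 129 CPM (SD, n = 5), and lowest in endothelial cells, at 78.7 ± 47.4 CPM (SD, n = 5). It passed as higher in astrocyte (1.53, SE 0.26, edgeR adjusted p = 4.44e-05) and myeloid cells (1.23, SE 0.257, adjusted p = 0.00024) and as lower in endothelial cells (−1.12, SE 0.272, adjusted p = 0.00125). Each of these directions held in 5 of 5 tumors.

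Gapdh was lower than in progenitors in every class and every tumor that had the class. It passed in endothelial (−1.01, edgeR adjusted p = 0.000385), OPC (−1.39, adjusted p = 9.99e-05), oligodendrocyte (−0.74, adjusted p = 0.0287) and mural cells (−0.72, adjusted p = 0.0437), though not in myeloid or astrocyte cells. Pgk1 was likewise lower in endothelial (−0.80, edgeR adjusted p = 0.00348), mural (−0.81, adjusted p = 0.0343) and myeloid cells (−0.60, adjusted p = 0.0199). The mural calls were lost without tumor 1 for Gapdh (−0.77, 0.054), without tumor 3 for both (−0.75, 0.11 and −0.87, 0.066) and without tumor 4 for both (−0.43, 0.37 and −0.47, 0.33). The oligodendrocyte call of Gapdh was lost without tumor 1 (−0.84, 0.069) or tumor 2 (−0.42, 0.26), and the myeloid call of Pgk1 without tumor 1, 2 or 5 (−0.51 to −0.62, adjusted p from 0.056 to 0.07). Pfkp was higher in astrocyte (1.97, SE 0.284, edgeR adjusted p = 5.82e-06), mural (2.04, SE 0.36, adjusted p = 6.88e-05) and endothelial cells (1.58, SE 0.287, adjusted p = 4.95e-05). It was lower in oligodendrocytes (−1.26, adjusted p = 0.0457), a call lost under 12 alternatives, among them the omission of any 1 tumor (−1.10 to −1.34, adjusted p from 0.064 to 0.16). Aldoa was higher in oligodendrocyte (0.87, edgeR adjusted p = 0.00834), mural (0.90, adjusted p = 0.00957) and astrocyte cells (0.65, adjusted p = 0.0208), and Pkm was lower in oligodendrocytes (−1.07, adjusted p = 0.0045). The mural call of Aldoa was lost without tumor 2 (0.83, 0.082) or tumor 3 (0.66, 0.064), and its astrocyte call without tumor 1, 2, 4 or 5 (0.59 to 0.70, adjusted p from 0.05 to 0.084). The oligodendrocyte calls of Aldoa without tumor 3 (0.49, 0.15) and of Pkm without tumor 2 (−0.77, 0.094) were lost.

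By class, the members' median log2 fold change against all genes was −0.11 and −0.14 in myeloid, 0.33 and −0.12 in endothelial, 0.28 and −0.27 in mural, 0.14 and 0.09 in astrocyte, −0.57 and −0.30 in oligodendrocyte and −0.50 and −0.17 in OPC cells. With library totals the calls over all genes turned in OPCs from 1202 higher and 1702 lower to 1785 and 936, and in myeloid cells from 2576 and 3215 to 1962 and 5052. Of the other enzymes (10 tested), 4 were higher and 2 lower in myeloid, 2 and 2 in endothelial, 4 higher in astrocyte, 4 lower in oligodendrocyte, and 2 lower in each of mural and OPC cells. Of the transport genes (9 tested), 5 were higher in myeloid, 5 in astrocyte and 3 in OPC cells, 4 were higher and 2 lower in endothelial cells, and 3 higher and 1 lower in oligodendrocytes. Of the regulators (12 tested) 4 were higher and 4 lower in myeloid cells, 4 were lower in each of endothelial and OPC cells, and 3 were higher in each of astrocyte and oligodendrocyte cells. In mural cells edgeR called 0 transport genes and 0 regulators, with 2 of each at an unadjusted p under 0.05, where DESeq2 and limma voom each called 1 transport gene and 0 regulators. Slc2a5, the fructose transporter of microglia, was higher in myeloid cells by 6.37 on the log2 scale (edgeR adjusted p = 2.46e-14) and Hk3 by 5.55 (adjusted p = 3.14e-09). Slc2a1 (6.55, edgeR adjusted p = 1.09e-14), Slc16a1 (5.20, adjusted p = 2.11e-15) and Bsg (4.03, adjusted p = 1.44e-10), all known from the blood–brain barrier, were higher in endothelial cells. Aldoc (2.25, edgeR adjusted p = 3.73e-06) and Pfkm (1.39, adjusted p = 5.73e-06) were higher in astrocytes and lower in mural cells (−1.82 and −1.57). Mpc1, a subunit of the mitochondrial pyruvate carrier, was higher in oligodendrocytes (1.48, adjusted p = 1.61e-07).

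Counted per cell, Hk2 had at least 1 UMI in 914 of 2153 tumor myeloid-gated cells, or 42.5% (exact Clopper–Pearson 95% interval 40.4 to 44.6%), and in 169 of 930 control ones, or 18.2% (15.7 to 20.8%). After thinning each cell to 1000 UMIs these shares were 13.4% (12 to 14.9%) and 6.34% (4.86 to 8.11%). With at most 2 neuron markers per barcode, an alternative chosen after seeing the data, the order turned, at 15.2% in tumors (13.5 to 17.1%) and 25% in the 20 control myeloid cells that remained (8.66 to 49.1%). In tumor progenitor-gated cells the share was 2.32%, or 0.526% thinned, and in neuron-gated cells 0 of 254, which limits the share with a UMI at this depth to 1.18%. Median depth ran from 2400 to 6097 UMIs in tumor myeloid and from 1302 to 2046 in tumor neuron-gated cells. Slc16a3 was seen in 22 of 125 tumor mural cells, or 17.6% (11.4 to 25.4%), of which 13 were from tumor 2, without which the share was 9 of 89, or 10.1% (4.73 to 18.3%). It was seen in 255 of 2153 myeloid cells, or 11.8% (10.5 to 13.3%), and in 18 of 930 control myeloid cells, or 1.94%. Thinned, the 3 shares were 8.00 (4.49% without tumor 2), 3.20 and 0.860%, against 0.226% in tumor progenitors. Under the same limit on neuron markers the thinned mural share was 2.0%, so no order of mural and myeloid cells is read from it. The intervals cover counting error only and treat cells of different mice as 1 pool. Among the 1108 cells with a fusion UMI, 22 held Slc16a3, or 1.99%, and most of its UMIs came from tumor 5. There were 31 in the 278 such cells of tumor 5 (20.2 CPM), 1 in 209 of tumor 2 (0.601 CPM) and 3 in 609 of tumor 4 (0.566 CPM).

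Among progenitor-gated cells of tumors 2 to 5, cycling cells were compared with non-cycling ones of the same mouse. All tumors together held 2420 cycling and 2703 non-cycling cells, 60 of the latter in tumor 1, which was not compared. Aldoa, Ldhb and Pfkp passed as lower in cycling cells and Pgk1 as higher, 4 of 9 members tested, where 11.7% of 12152 genes were called higher and 10.1% lower (21.8% in all). The members' median log2 fold change was −0.21 against −0.05 over all genes, and library totals moved the calls from 1426 higher and 1228 lower to 1228 and 1723. Aldoa stood at 181, 127, 212 and 328 CPM in cycling and 421, 335, 397 and 455 CPM in non-cycling cells of tumors 2 to 5, lower in 4 of 4 (−0.89, SE 0.134, edgeR adjusted p = 0.000626). Ldhb stood at 60.1, 143, 80.1 and 240.4 CPM against 90.6, 281, 140.0 and 308 CPM, again lower in 4 of 4 (−0.59, SE 0.111, edgeR adjusted p = 0.00298). The split counts detected markers, and depth differed with it. Over all tumors, median depth ran from 3622 to 9011 UMIs in cycling and from 2850 to 6418 in non-cycling cells. In the lowest-UMI barcodes of tumors 2 to 5, Aldoa stood at 432, 548, 379 and 455 CPM and Ldhb at 169, 391, 154 and 307 CPM. The part of depth and of RNA outside cells in these calls was not tested.

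Pgk1 was 304, 225, 349 and 246 CPM in cycling and 271, 165, 289 and 193 CPM in non-cycling cells, higher in 4 of 4 tumors (0.36, SE 0.0907, edgeR adjusted p = 0.0158). Pfkp was lower in 4 of 4 (−0.50, SE 0.155, edgeR adjusted p = 0.0378). With barcodes limited to at most 2 neuron markers, an alternative chosen after seeing the data, Pfkp (−0.20, edgeR adjusted p = 0.46) and Pgk1 (0.19, adjusted p = 0.2) no longer passed. Leaving out tumor 2, 3 or 5 also ended the Pfkp call (−0.40 to −0.52, edgeR adjusted p from 0.051 to 0.17), and leaving out tumor 4 or 5 that of Pgk1 (0.36 and 0.34, adjusted p = 0.11 and 0.074). Gapdh, Ldha, Pkm, Hk1 and Hk2 did not pass, with log2 fold changes from −0.27 to 0.22. Of the other enzymes Eno2 (−0.84, edgeR adjusted p = 0.00876) and Aldoc (−0.58, adjusted p = 0.0138) were lower and Tpi1, triose phosphate isomerase, higher (0.30, adjusted p = 0.0443).

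**Figure D5:**
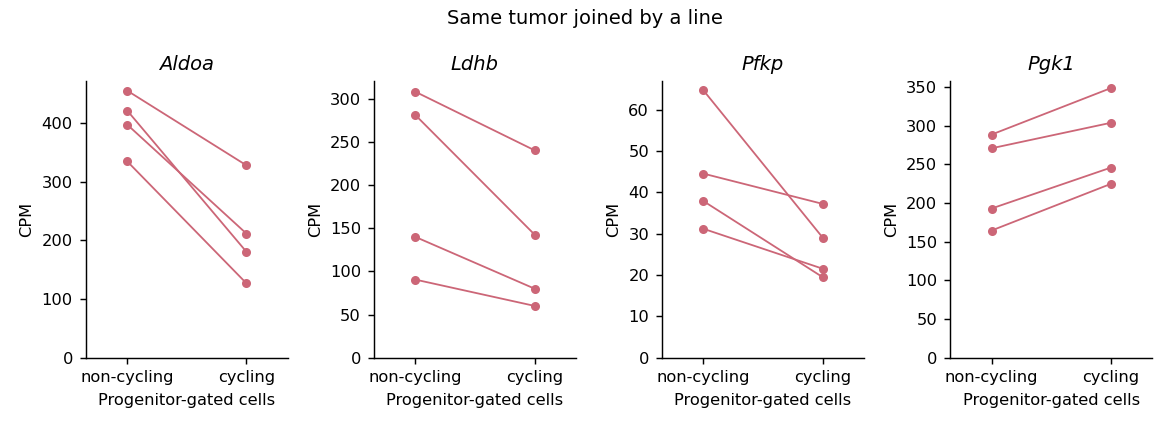
CPM of Aldoa, Ldhb, Pfkp and Pgk1 in cycling and non-cycling progenitor-gated cells of tumors 2 to 5. A line joins the values of 1 tumor. Aldoa, Ldhb and Pfkp are lower and Pgk1 higher in the cycling cells of all 4 tumors.

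Across 59 sums of a library and class, the genes whose log2(CPM + 10) ran most like a member's were taken as a description, since sums share libraries and depth. The closest to Hk2 among 4018 genes were the microglial genes Fcgr3 (Pearson r = 0.942), C1qc (0.938) and Ly86 (0.938). Slc16a3 ran closest to Ccl2 (0.824), a monocyte attractant, and Arhgdib (0.778). Ldha ran closest to Svbp (0.851) and Rpl41 (0.837), Ldhb to Spire1 (0.786) and Aldoa to Cds2 (0.810).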

How the data were processed

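Single-cell RNA-seq libraries of 5 tumors and 4 control brains were read from the deposited 10x matrices, which hold raw UMI counts per gene and barcode as the authors' Cell Ranger run wrote them. The submitters' processing notes name Cell Ranger 7, Scanpy 1.8.2 and mm10, and the matrix headers name Cell Ranger 6.1.2. From these counts the top 10000 barcodes per library were taken, those with 200 to 6000 genes were kept, a 2-component Gaussian mixture on mitochondrial share and genes, fitted per library, removed 3273 to 7586 barcodes per library (those removed averaged 3.68 to 22.4% mitochondrial UMIs and those kept 2.16 to 10.5%), and Scrublet scores removed 0.8% per 1000 barcodes as doublets (scanpy 1.11.5, scikit-learn 1.9.0, Python 3.11.15). A barcode was gated to a class with at least 3 of its markers and a lead of 2 over the next class (neurons at least 4, other lists at most 1), and 3661 tumor and 12169 control barcodes stayed ungated. Cycling progenitors had at least 2 cycling markers and non-cycling ones 0.

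Counts were summed per mouse and class, with at least 20 cells per sum and 3 mice per group, and tested in R 4.3.3 with edgeR 4.0.16 (quasi-likelihood, TMM, filterByExpr, Benjamini-Hochberg over all genes tested, threshold 0.05). DESeq2 1.42.0 and limma 3.58.1 were alternatives, and the fitting step was tested on simulated data. P-values of tumor against control measure the spread between mice. Those within tumors, with the mouse as a block, measure how far the difference between classes varies from mouse to mouse. Intervals and limits on a count of 0 cover counting error only. Depth was 2032 to 4115 median UMIs per kept control cell and 2068 to 6512 per kept tumor cell.

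The members and the gene lists were chosen with earlier results of these data known. Members are always named, and from the lists of other enzymes, transport genes and regulators at most 5 genes per list and comparison that passed, by smallest p. The alternatives with at most 2 neuron markers per barcode, without tumors 1 and 3, and per myeloid marker were chosen after seeing the data. Control 4 was deposited with slightly shorter barcode and feature lists (80865 and 32287 entries against a matrix size of 80887 and 32289), and entries past the lists were left out. Ependymal, lymphoid and neutrophil gates held at most 36 cells in a group and were not analysed further.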

Additional observations from a re-analysis of the deposited data

Results flagged for a closer look

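In 143 groups of 4 or 5 mice, the extreme mouse stood apart by Dixon's 95% criterion in 13, where chance alone gives about 7.15.

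The values on the lower levels were these. Hk2 in progenitor-gated control cells was 8.30 CPM in control 1 and 0 in the others, and Slc16a3 there was 4.23 CPM in control 4 and 0 in the others. Hk2 in astrocyte-gated control cells was 3.20 CPM in control 2 against 1.77 to 1.98 CPM. These rest on a few UMIs.

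In myeloid-gated control cells Hk1 was 78.2 CPM in control 2 against 96.9 to 97.8 CPM, and Hk2 was 86.6 CPM in control 1 against 56.6 to 59.2 CPM. Tumor 4 had the high Pkm value, with 541 CPM over all cells against 328 to 385 CPM in the other tumors, and 599 CPM in astrocyte-gated cells against 281 to 353 CPM. Tumor 1 had 971 CPM of Gapdh in progenitor-gated cells against 1452 to 1601 CPM. Tumor 2 had the high value for Pgk1 in endothelial-gated cells (183 CPM against 107 to 127 CPM), for Slc16a3 in the same cells (86.5 CPM against 0.924 to 10.6 CPM) and for Hk2 in astrocyte-gated cells (46.1 CPM against 1.56 to 10.5 CPM).

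Of the isozyme shares, Aldoa was 79.5% of aldolase UMIs in endothelial-gated cells of control 3 against 70.1 to 70.8% in the other controls. Pfkp was 62.2% of phosphofructokinase UMIs in oligodendrocyte-gated cells of control 4 against 67.2 to 67.6%.

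Ldha and Ldhb lay on opposite sides of the controls in different classes. The ratio of mean CPM, tumor over control, for Ldha was 2.85 in astrocyte-gated and 3.05 in endothelial-gated cells, where every tumor lay above every control, and 0.737 in oligodendrocyte-gated cells, where every tumor lay below. The last was not called after TMM scaling (log2 fold change −0.16), and its direction turned with a mitochondrial limit of 10% (0.028) and with at most 5000 barcodes (0.067). For Ldhb it was 1.50 in astrocyte-gated cells, all tumors above, and 0.319 in endothelial-gated and 0.349 in oligodendrocyte-gated cells, all tumors below. These differences between classes were not tested. In controls the astrocyte gate did not separate astrocytes from the RNA of the lowest-UMI barcodes, so its ratios are not read as changes within astrocytes.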

How the results depend on the processing

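Of 917 recomputed fold changes of members between tumor and control, 840 kept their direction and call, 40 lost the call, 21 gained it and 16 changed sign, all of the last among values that were not called. Within tumors, 454 of 515 recomputed values of called members held, 61 lost the call and 0 changed sign, and of 656 values of members not called 41 changed sign and 30 passed. Where a cause is not given, the cause was not tested. Same-numbered controls and tumors did not deviate together (correlations 0.0377, 0.0154, 0.0042 and 0.0479) and the labels tie the numbers to no litter or batch, so the numbers were not taken as a pairing. Correlations over so few pairs cannot show that no batch was shared. With the numbers as a replicate block the members passing went from 7 to 3 over all cells and from 4 to 1 in astrocyte-gated cells. With 1 mouse left out, the number of members passing, newly passing ones included, was 6 to 8 over all cells (7 with all mice), 6 to 7 in myeloid (7), 2 to 4 in astrocyte (4, and 2 without control 1), 2 to 3 in endothelial (2) and 3 to 5 in oligodendrocyte cells (4). Within tumors 26 calls became 18 to 25 without 1 tumor and 15 with at least 50 cells per sum, which removes classes. In cycling cells, leaving out any 1 of tumors 2 to 5 ended at least 1 of the 4 calls, and 2 members passed without tumor 5. With at most 2 neuron markers 2 members passed. With no mouse block in edgeR 0 passed, and 1 of 9 members kept an unadjusted p under 0.05. The 9 isozyme shares that passed became 0 to 13 without 1 mouse (13 without tumor 1) and 0 without tumors 1 and 3. These counts say nothing of stability. The smallest exact p rises to 0.0286 for 4 against 4 and 0.0357 for 5 against 3, where 12 and 15 of the 20 shares must reach it for any to pass, and to 0.0571 for 3 against 4. The 9 shares kept their sign in all 81 recomputed values without 1 mouse. Since the groups of these shares did not overlap, this was fixed in advance and says nothing of stability either.

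Sign changes with library totals in place of TMM were −0.059, −0.20 and −0.43 for Ldhb, Pkm and Pgk1 in myeloid, −0.018 for Hk1 in endothelial and −0.21 for Pgk1 in oligodendrocyte cells. Pgk1 in endothelial cells turned to 0.19 with no filter, 0.026 with the replicate block and 0.068 without tumors 1 and 3. In oligodendrocyte cells Ldha turned to 0.028 with a mitochondrial limit of 10% and 0.067 with at most 5000 barcodes, and Aldoa to 0.16 with the latter. Leaving out 1 mouse ranged from −0.016 to 0.27 for myeloid Pgk1, −0.028 to 0.32 for endothelial Hk1, −0.15 to 0.39 for endothelial Pfkp, −0.27 to 0.15 for endothelial Pgk1 and −0.42 to 0.063 for oligodendrocyte Aldoa. In percentage points, the Pfkp share ranged from −0.026 to 9.78 in endothelial cells and the Aldoa share from −11.0 to 5.04 in oligodendrocyte cells, which a gate of 4 markers and a lead of 3 put at 0.580. Cells with Hk2 made up 25.4% of tumor and 11.1% of control myeloid cells when thinned to 2000 UMIs, 11.2% of tumor cells with the mitochondrial limit, 8.17% of control cells with the stricter gate, and 15.2% of tumor and 25% of control cells with at most 2 neuron markers, which turns the direction on 20 control cells. For Slc16a3, tumor myeloid cells gave 6.21% at 2000 UMIs and 2.14% with the mitochondrial limit, and tumor mural cells 2.0% with at most 2 neuron markers.

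The limit of at most 2 neuron markers could not be fitted for any comparison of tumor with control, because too few control barcodes remained. The endothelial comparison with the mitochondrial limit, 5000 barcodes or 50 cells per sum, and the oligodendrocyte comparison without tumors 1 and 3 or with 50 cells per sum, were not run for want of samples, nor was the neuron-gated comparison. Calls over all cells for Gapdh, Aldoa, Pkm and Slc16a3 were lost under the replicate block.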
